A study of Mus musculus with 5 samples.

Results

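The MHC class I genes described here are 7 of the 18132 gene symbols listed in the 4 deposited single-cell tables: H2-K1, H2-D1, B2m, H2-T23, H2-Q4, H2-Q7 and Tapbp. They were chosen by name, and their UMIs (unique molecular identifiers, 1 per captured RNA molecule) were summed over the cells that share a deposited cell label on a given day. The cells came from tibialis anterior muscle of C57Bl/6 mice, dissociated, freed of red blood cells, sorted for live cells and made into droplet libraries that count the 3′ ends of transcripts. Day 0 muscle was uninjured and came from 4-month-old females, as 2 sequencing runs processed into 1 table. Muscle taken 2 days after notexin, a venom protein used to damage muscle, came from 7-month-old females. Day 5 muscle came from 4-month-old females and day 7 muscle from 4-month-old males, both after notexin. Every day is therefore 1 sample, and injury, age, sex and library cannot be told apart between days.

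MHC class I molecules carry peptides from inside the cell to its surface, where CD8 T cells and natural killer cells read them. Each is a heavy chain bound to beta-2-microglobulin. H2-K1 and H2-D1 encode the classical heavy chains of this strain, and B2m the shared light chain. H2-T23, H2-Q4 and H2-Q7 encode non-classical heavy chains; H2-T23 encodes Qa-1, which is read by CD94/NKG2 receptors, and H2-Q7 encodes a form of Qa-2. Tapbp encodes tapasin, which holds an empty heavy chain at the peptide transporter until it is loaded. Interferons and NF-kB are known to raise transcription of these genes, and resting muscle fibres are known for low class I.

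Tapbp (chr17:33915899-33929292, plus strand), H2-K1 (chr17:33996017-34000347, minus), H2-D1 (chr17:35262730-35267499, plus), H2-Q4 (chr17:35379617-35385290, plus), H2-Q7 (chr17:35439155-35443773, plus) and H2-T23 (chr17:36029773-36032855, minus) lie together on chromosome 17 of GRCm38. B2m lies apart (chr2:122147686-122153083, plus). All 7 are annotated as protein-coding in GENCODE M21. An antisense gene, Gm11131, overlaps the start of H2-Q4, and whether strand was used in counting is not given in the sources used here.

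The bases just before the transcript start are shown for 4 genes because H2-Q4 and H2-Q7, whose levels lay on opposite sides of day 0 in endothelial cells at days 5 and 7, carry nearly the same block there as H2-K1, and B2m carries the same elements in another order. The sequences, of equal length, are from RefSeq's GRCm38.p6 promoter table, written 5′ to 3′ on the gene's strand, with capitals marking matches to the 4 motifs spelled out after them. H2-K1 is chr17:34000350-34000463 (minus strand), H2-Q4 is chr17:35379438-35379551 (plus), H2-Q7 is chr17:35439017-35439130 (plus) and B2m is chr2:122147545-122147658 (plus).
H2-K1: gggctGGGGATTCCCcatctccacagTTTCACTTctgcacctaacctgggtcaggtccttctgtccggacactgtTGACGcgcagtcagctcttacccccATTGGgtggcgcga
H2-Q4: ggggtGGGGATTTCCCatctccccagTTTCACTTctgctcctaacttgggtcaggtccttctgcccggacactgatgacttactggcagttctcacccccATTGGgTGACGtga
H2-Q7: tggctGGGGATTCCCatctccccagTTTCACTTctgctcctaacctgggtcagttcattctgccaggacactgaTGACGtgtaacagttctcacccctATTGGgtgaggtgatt
B2m: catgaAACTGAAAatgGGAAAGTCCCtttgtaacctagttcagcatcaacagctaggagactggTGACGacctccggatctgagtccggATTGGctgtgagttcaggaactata

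The motifs, searched on both strands in the 250 bases upstream of 27025 genes, were an NF-kB-like motif (GGG, any 2 bases, TT, any 1 base, CC), an interferon response-like core TTTCNNTT, a CRE-like TGACG and the CCAAT box. The NF-kB-like motif was present upstream of 4.00% (1082) of all genes, the interferon response-like core of 21.6%, the CRE-like motif of 17.9% and the CCAAT box of 34.5%. Of the 7 members, 5 (H2-K1, H2-D1, B2m, H2-Q4 and H2-Q7) held the NF-kB-like, interferon response-like and CRE-like motifs together. So did 0.170% of all genes (46 of 27025). H2-K1, H2-Q4 and H2-Q7 carry nearly the same block, so their matches are not independent, and the share carries no test. H2-T23 held the interferon response-like core 2 times and a CCAAT box, with no NF-kB-like or CRE-like match. Tapbp held CCAAT boxes only. In H2-K1 the NF-kB-like match began 111 bases before the start and the interferon response-like core 90 bases before it; in H2-Q7 they began 133 and 113 bases before it. H2-Q4 held 2 overlapping NF-kB-like matches, and its CRE-like match lay beside the CCAAT box, 73 bases before the start. In B2m the order of the first pair of motifs was turned round and both matched the antisense strand. A match describes letters only, and binding was not measured.

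**Figure D1:**
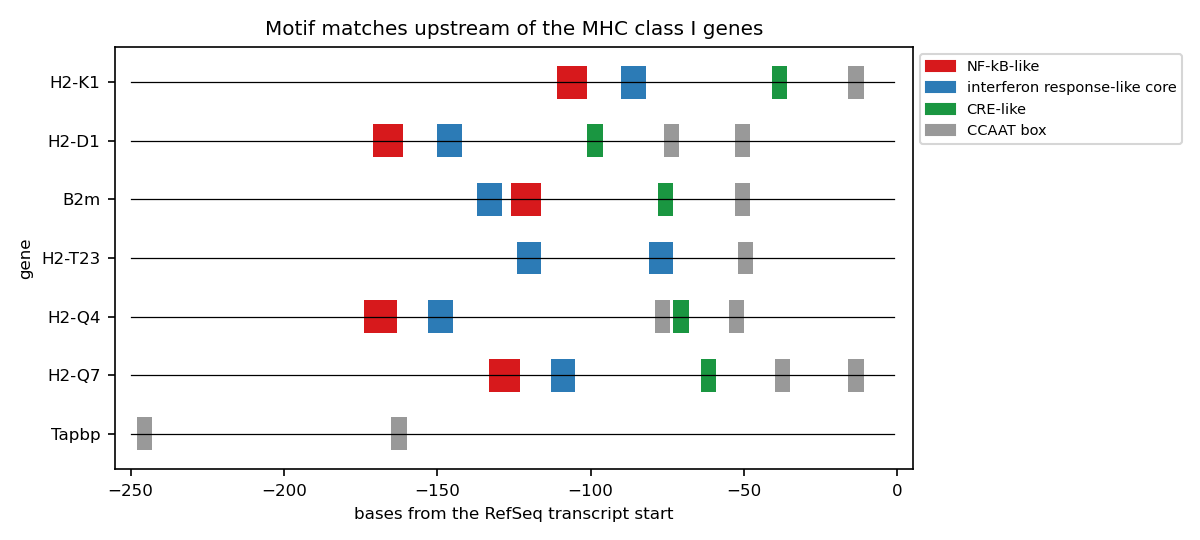
Positions of the 4 motifs (coloured boxes) in the 250 bases before the RefSeq transcript start of each gene; the horizontal axis is distance from the start in bases. H2-K1, H2-D1, H2-Q4 and H2-Q7 share the order of the NF-kB-like box, the interferon response-like box and then the CRE-like or CCAAT boxes, while H2-T23 and Tapbp lack the NF-kB-like and CRE-like boxes.

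The tables held 17923 cells with a label, in 31 groups of 1 label on 1 day, of 29 to 3516 cells. They comprised 5176, 4903, 2164 and 5680 cells at days 0, 2, 5 and 7, with medians of 3832.5, 9683, 2018 and 5991 UMIs per cell. Levels are CPM, that is UMIs of a gene per 1000000 UMIs of the group, and 95% intervals (exact Poisson for a level, exact Clopper-Pearson binomial for a ratio of 2 levels) cover counting error only. Because 1 end is counted per molecule, transcript length does not enter these levels. Some labels went against their defining markers or held more of another list. The 29 cells labelled B cells at day 5 had 0 UMIs of 4 B-cell markers, against 3005 CPM of 4 dendritic markers. The 169 cells labelled B cells at day 2 had 1.83 CPM of the B-cell markers, with 2 of the 4 at 0. The 409 cells labelled Macrophages/APCs/T-cells at day 5 had 284 CPM of 6 macrophage markers, against 3095 of 6 T and NK markers. The 57 cells labelled Platelets at day 0 had 33.0 CPM of 4 platelet markers against 5212 of 6 endothelial markers. The 71 cells labelled Neural/Glial/Schwann cells had 2835 CPM of 4 glial markers, but 36727 of 5 mature muscle markers. MuSCs and progenitors had 1259 CPM of 6 MuSC markers at day 7, beside 5204 of 6 macrophage and 2733 of 6 FAP markers. At day 2 the same label had 1026 CPM of the MuSC markers beside 1576 of the macrophage markers, and at day 5 it had 1590 beside 205. These groups are named below by their labels only. Endothelial cells of day 0 had 8412 CPM of the FAP markers, 1 of them at 5202, beside 5671 of the endothelial markers. Their FAP markers summed to 299, 1147 and 750 CPM at days 2, 5 and 7. Tenocytes of day 0 had 73213 CPM of the FAP markers beside 23982 of 5 tenocyte markers. No value below was corrected for FAP RNA. Between 9 and 40 barcodes were shared by any 2 of the 4 tables.

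Summed over the 7 genes, the level ran from 858 CPM in the label MuSCs and progenitors (muscle stem cells and their offspring) at day 2 to 23718 in Macrophages/APCs 2 at day 7, with a median of 7974 over the 31 groups. B2m was the most abundant member in most groups. Its level ran from 428 CPM in MuSCs and progenitors at day 2 to 13357 in Macrophages/APCs 2 at day 7, with a median of 3523. H2-D1 ran from 177 CPM in Mature skeletal muscle at day 5 to 5486 in Macrophages/APCs 2 at day 7, with a median of 1969. H2-K1 ran from 130 CPM in MuSCs and progenitors at day 2 to 3552 in the cells labelled B cells at day 5, with a median of 916. MuSCs and progenitors at day 7 stood at places 20, 21 and 19 of 31 for B2m, H2-D1 and H2-K1. The other 4 myogenic groups took the last 4 places for B2m and H2-D1, and places 25, 29, 30 and 31 for H2-K1. Labels of day 7 that name macrophages took the first 2 places for B2m and H2-D1, while immune-labelled groups of day 2 reached down to place 23 for B2m and 22 for H2-K1.

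The other 4 genes were lower, with medians between 61.4 and 159 CPM. Tapbp was the most even: apart from myogenic and glial labels, all its levels lay between 106 CPM (Immune, day 2) and 370 (Macrophages/APCs 2, day 7). H2-T23 had a median of 104 CPM and its highest level, 403, in the cells labelled B cells at day 5. H2-Q7 had the widest range of the 4, from 1.72 CPM in MuSCs and progenitors at day 2 to 911 in the cells labelled B cells at day 5. H2-Q4 was ordered differently: its highest level, 359 CPM, was in day 0 endothelial cells. Both H2-T23 and H2-Q4 were at 0 UMIs in the 62 mature muscle cells of day 5, where a count of 0 allows up to 19.6 CPM (3 counts).

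Most neighbours in these orders could not be separated. Of 30 pairs of neighbouring groups per gene, intervals overlapped in 18 pairs for B2m, 21 for H2-K1, 23 for H2-D1, 26 for H2-Q7 and 29 each for H2-T23, H2-Q4 and Tapbp. For B2m the first place was separate: Macrophages/APCs 2 at day 7 had an interval of 12969 to 13754 CPM, above Anti-inflammatory macrophages at day 7 (10336 to 10440). For H2-Q7 the leading 5 groups, all lymphoid-marker or dendritic-marker groups of days 5 and 7, lay between 772 and 911 CPM, each overlapping its neighbour. Endothelial cells of day 7 followed at 321.

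**Figure D2:**
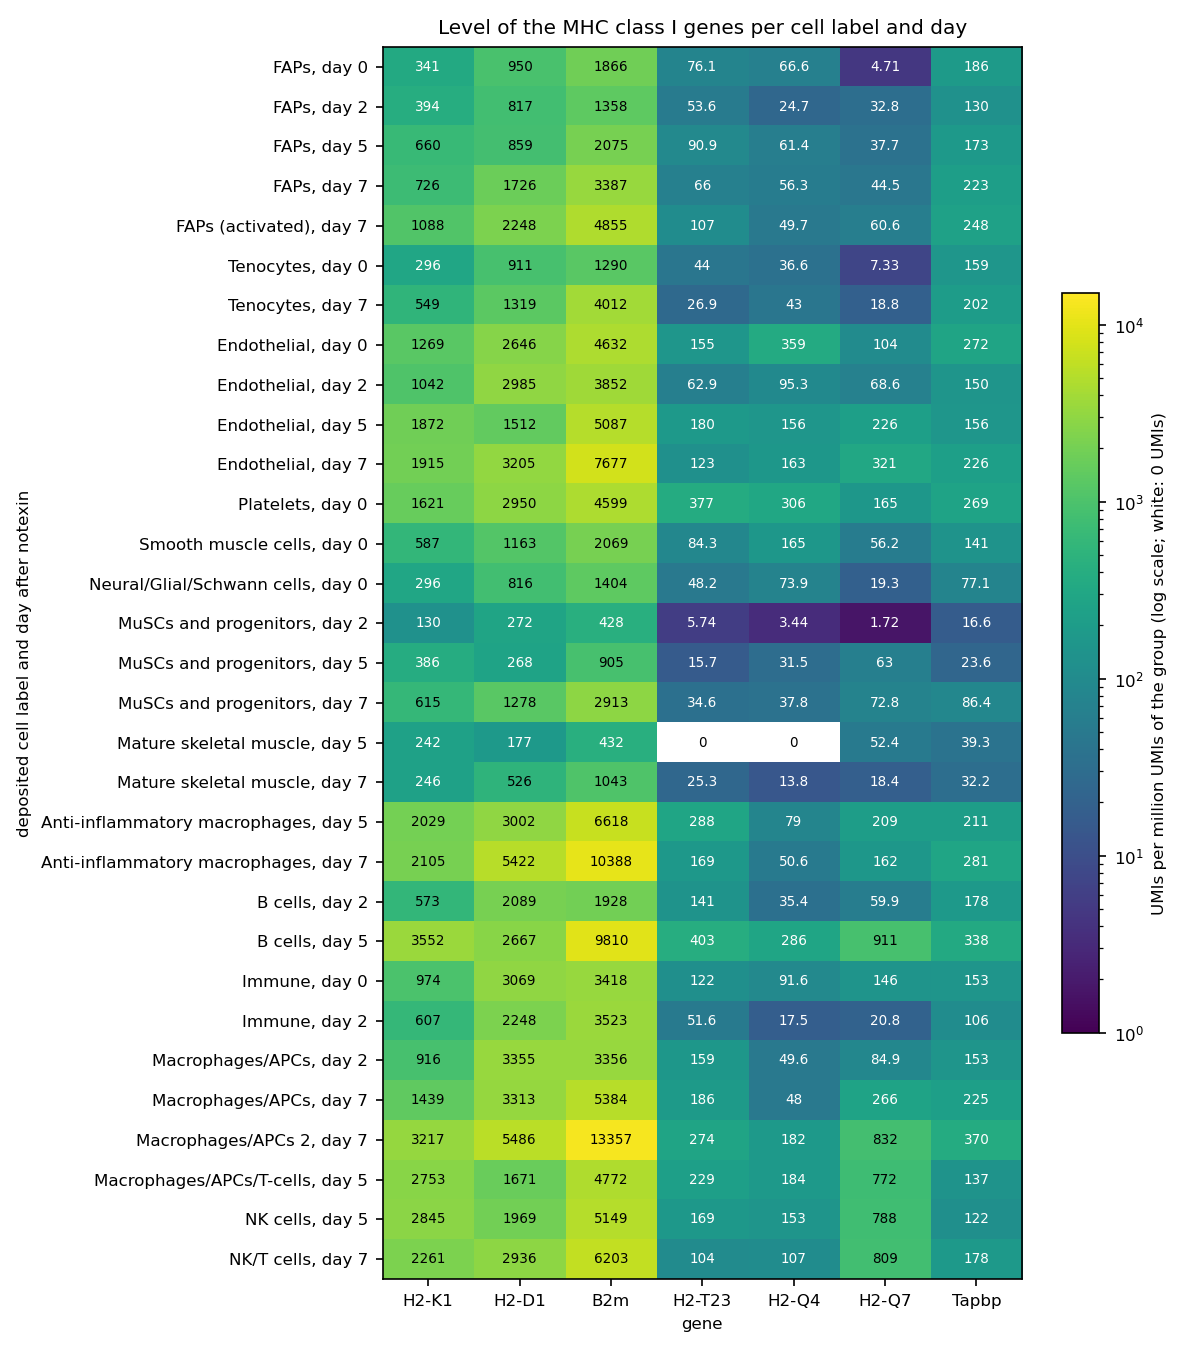
CPM of each gene (columns) in each of the 31 label and day groups (rows), with colour on a log scale and the value printed; white marks 0 UMIs. The row of MuSCs and progenitors at day 2 is darkest, and B2m is brightest in Macrophages/APCs 2 at day 7 (13357).

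Fibro-adipogenic progenitors (FAPs), the matrix-producing stromal cells of muscle, had more H2-Q7 RNA on all 3 days after notexin than at day 0, H2-T23 and Tapbp within 2-fold of day 0, and about 2-fold more of the abundant members at day 7. H2-Q7 stood at 4.71 CPM at day 0, 32.8 at day 2, 37.7 at day 5 and 46.9 at day 7, and the intervals of the 3 later days do not overlap that of day 0 (3.72 to 5.89). It was thus 6.96-fold higher at day 2 than at day 0 (log2 2.80, interval 2.43 to 3.18) and 9.94-fold higher at day 7 (log2 3.31, 2.97 to 3.67), with an interval of 2.57 to 3.44 (log2) at day 5. After thinning every cell to 1000 UMIs, 3.30% of day 2 FAPs, 3.86% of day 5 FAPs and 4.55% of cells labelled FAPs at day 7 had an H2-Q7 UMI, against 0.370% at day 0; without thinning the shares were 27.9%, 11.5%, 22.5% and 2.08%.

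H2-K1 in FAPs was 341 CPM at day 0, 394 at day 2, 660 at day 5 and 779 at day 7. It was 2.29-fold higher at day 7 than at day 0 (log2 1.19, 1.15 to 1.24), and the step at day 2 was small (log2 0.21). B2m was 1866, 1358, 2075 and 3602 CPM at days 0, 2, 5 and 7, so that day 2 lay below day 0 (log2 −0.46) and day 7 above it (log2 0.95). H2-D1 was 950, 817, 859 and 1802 CPM, with only day 7 above day 0. H2-Q4 was lowest at day 2, at 24.7 CPM against 66.6 at day 0 (log2 −1.43, −1.65 to −1.23; just inside 2-fold in thinned cells), and lay near its day 0 level at day 5 (61.4) and day 7 (55.3). H2-T23 stayed between 53.6 and 90.9 CPM and Tapbp between 130 and 227.

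A member is counted here as higher or lower where its level was at least 2-fold away from the earlier day with at least 20 UMIs over both days. In FAPs 1 member was higher at day 2 (H2-Q7), where 10.9% of 12995 genes were, and 1 was lower (H2-Q4), where 14.1% of all genes were. At day 5 H2-Q7 alone was higher (10.2% of all genes) and none was lower (10.3%). At day 7 H2-Q7 and H2-K1 were higher (9.99% of all genes) and none was lower (10.6%). A count of 1 or 2 of 7 is not far from those shares. The median log2 ratio of the 7 genes was −0.46, 0.15 and 0.92 at days 2, 5 and 7, against −0.17, −0.01 and −0.08 over all genes.

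The 2 FAP labels of day 7 come from the same library. In cells labelled FAPs (activated), 352 cells, H2-K1 was 1088 CPM against 726 in the 1537 labelled FAPs. B2m was 4855 in FAPs (activated) and 3387 in FAPs, H2-T23 107 and 66.0, H2-Q7 60.6 and 44.5, and H2-Q4 49.7 and 56.3. All but H2-Q4 were higher in the activated label; the intervals of H2-Q4 and of Tapbp (248 and 223) overlapped between the labels. Without the activated label, the day 7 ratio to day 0 was 3.24 for H2-Q7 and 1.09 for H2-K1 on the log2 scale.

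Macrophage markers were present in FAP-labelled cells after injury. The 6 macrophage markers summed to 2259, 208 and 1056 CPM in cells labelled FAPs at days 2, 5 and 7, against 47.0 at day 0, with none of the 6 at 0 on any day. Their median ratio between FAPs and all immune-labelled cells of the day was used to scale the RNA of that immune pool (immune RNA). Scaled by those markers, immune RNA would carry 6.53% of the H2-Q7 level of FAPs at day 2, 33.6% at day 5 and 19.3% at day 7. The pool is not macrophages alone. At day 5 its H2-Q7 level was 487 CPM, against 209 in Anti-inflammatory macrophages and 788 in NK cells. In FAPs with fewer than 2 UMIs of immune markers, H2-Q7 was 43.1 CPM at day 7 (460 cells) and 29.1 at day 5 (591 cells). It was 4.59 in such cells at day 0 (3405 cells). Shallow cells pass this cut more easily, so the cells kept can hold immune RNA that was not counted. At day 2 only 1 of 667 FAPs had so few immune UMIs, so no such value could be had; there the H2-Q7 level was 32.8 CPM in FAPs, against 20.8 in the cells labelled Immune, 59.9 in those labelled B cells and 84.9 in Macrophages/APCs of the same library, so that FAPs lay above 1 of the 3 immune labels and below the other 2.

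**Figure D3:**
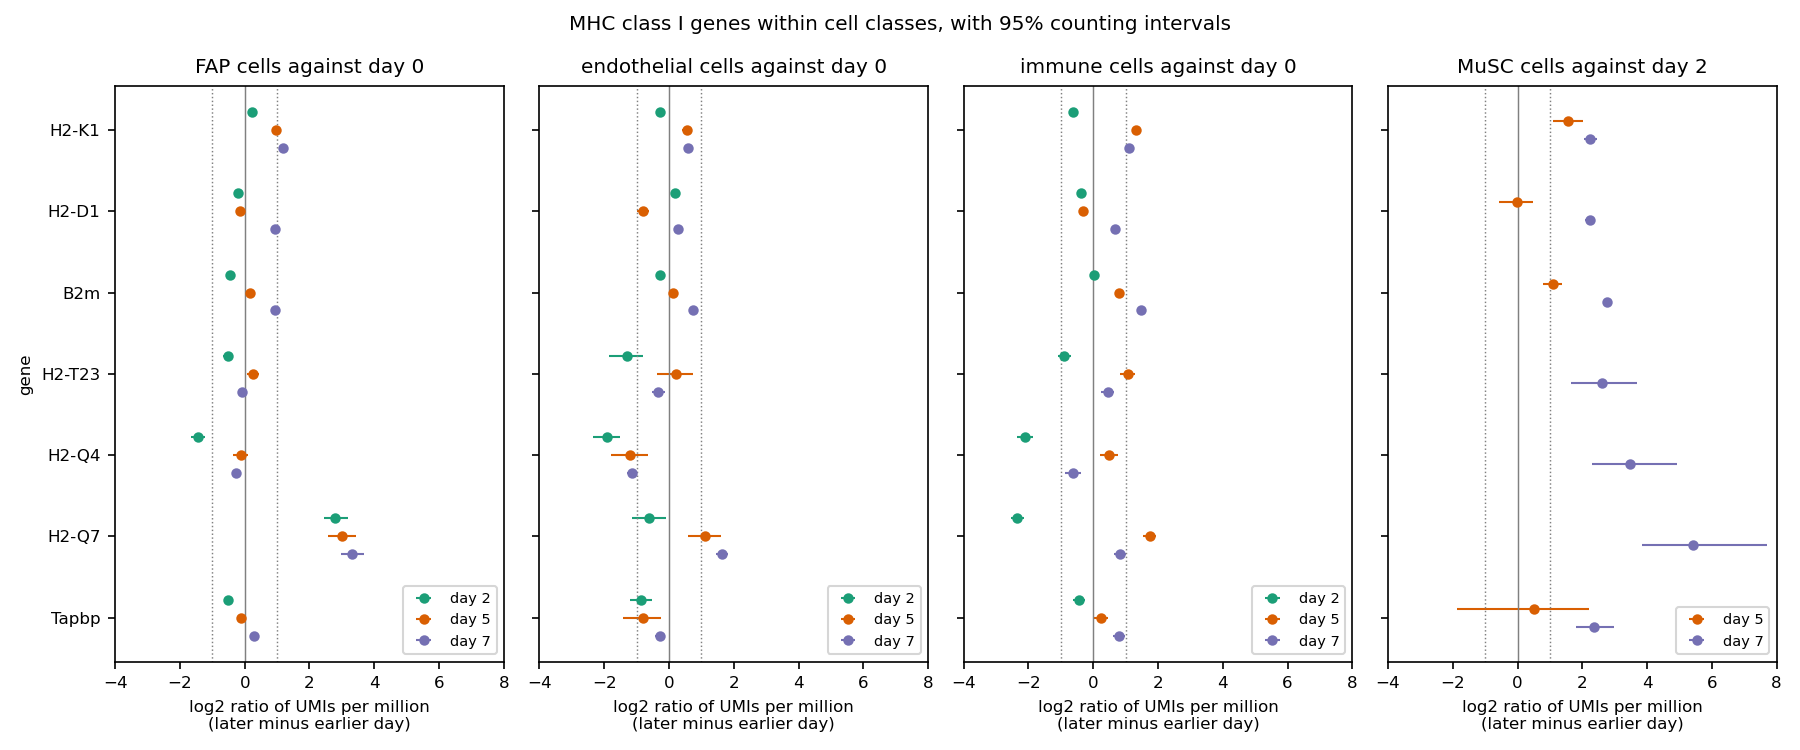
Log2 ratio of CPM of each gene (rows) within FAP, endothelial, immune and MuSC cells; points are days, bars 95% counting intervals, dotted lines a 2-fold difference, and values under 20 UMIs are left out. H2-Q7 lies 2.80 to 3.31 to the right in FAPs, H2-Q4 lies to the left on all 3 days in endothelial cells, and all 7 genes lie to the right of the 2-fold line in MuSC-labelled cells at day 7.

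Endothelial cells, which line blood vessels, had less H2-Q4 RNA on all 3 days after notexin than at day 0, and more H2-Q7 RNA at days 5 and 7. H2-Q4 was 359 CPM at day 0, 95.3 at day 2, 156 at day 5 and 163 at day 7, so that every later day lay below day 0 by more than 2-fold (log2 −1.91, −2.35 to −1.50; −1.20, −1.81 to −0.65; −1.14, −1.30 to −0.99). H2-Q7 was 104 CPM at day 0, 68.6 at day 2, 226 at day 5 and 321 at day 7, with log2 ratios to day 0 of −0.61, 1.11 (0.60 to 1.60) and 1.62 (1.44 to 1.81). In thinned cells the day 2 ratio of H2-Q7 was 0.61, in the opposite direction.

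B2m in endothelial cells was 4632, 3852, 5087 and 7677 CPM at days 0, 2, 5 and 7, and H2-K1 was 1269, 1042, 1872 and 1915. H2-D1 was lowest at day 5, at 1512 CPM against 2646 at day 0 (log2 −0.81, −0.99 to −0.63). H2-T23 was lower at day 2, at 62.9 CPM against 155 at day 0 (log2 −1.30, −1.86 to −0.79), and the ratio was −0.70 in thinned cells. Tapbp was 151, 156 and 226 CPM at days 2, 5 and 7, and 272 at day 0.

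In all, 2 members were at least 2-fold lower in endothelial cells at day 2, where 19.7% of 9707 genes were, and none was higher (6.58%). At day 5, 1 was higher (11.4% of all genes) and 1 lower (15.6%); at day 7, 1 was higher (7.08%) and 1 lower (10%). The day 2 group was 58 cells whose macrophage markers summed to 8664 CPM, above their endothelial markers (3618), and all 58 held at least 2 immune-marker UMIs. Scaled by those markers, immune RNA would carry between 6.23% (H2-Q4) and 29.0% (H2-T23) of the 7 levels at day 2. Subtracting that share left H2-Q4 and H2-T23 more than 2-fold lower, with log2 ratios of −1.79 for H2-T23 and −0.77 for H2-Q7, and put Tapbp past 2-fold (−1.19, against −0.86 without the subtraction). Among endothelial cells with fewer than 2 immune-marker UMIs, the log2 ratio of H2-Q4 was −0.90 at day 7 (203 cells) and −1.31 at day 5 (84 cells), and that of H2-Q7 1.62 and 0.93 on the same days. In thinned cells the day 7 ratio of H2-Q4 was −0.73.

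In immune-labelled cells, pooled because the labels differ by day, H2-K1 was 974 CPM at day 0, 637 at day 2, 2418 at day 5 and 2078 at day 7. B2m was 3418, 3450, 5939 and 9473 over the same days, 2.77-fold higher at day 7 than at day 0 (log2 1.47, 1.43 to 1.51). H2-Q7 was 146, 28.5, 487 and 258 CPM, and H2-Q4 was 91.6, 21.3, 128 and 59.2. H2-Q7 and H2-Q4 were thus lower at day 2 (log2 −2.36 and −2.10), where 22.7% of 12501 genes were lower, and no member was higher (7.82%). H2-K1, H2-T23 and H2-Q7 were higher at day 5 (log2 1.31, 1.07 and 1.74; 13.5% of all genes), and H2-K1 and B2m at day 7 (8.42% of all genes). None was lower at day 5 (13.2%) or day 7 (16.2%). Averaged over cells, H2-T23 at day 5 (0.82) and H2-K1 at day 7 (0.94) came within 2-fold.

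The makeup of the pool moved with these values. Among cells with more macrophage than T and NK marker UMIs (207, 4105, 371 and 2239 cells at days 0, 2, 5 and 7), the log2 ratio of H2-Q7 to day 0 was −0.69 at day 2, 2.08 at day 5 and 1.97 at day 7, so that the day 2 value was under 2-fold and the day 7 value above it. H2-Q4 stayed at −1.59 at day 2. At day 7 H2-K1 was 1.49 and B2m 1.73. Of the gated cells, 39, 12, 162 and 108 lay within 1 UMI of the cut at days 0, 2, 5 and 7. The gate was thus least secure at day 5.

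Within 1 library, the order of macrophage and lymphoid labels differed by gene. At day 7 Anti-inflammatory macrophages had 10388 CPM of B2m and 5422 of H2-D1, against 6203 and 2936 in NK/T cells. H2-Q7 was 162 CPM in those macrophages and 809 in NK/T cells, and H2-Q4 50.6 and 107. H2-K1 was close in both, at 2105 and 2261. At day 5 Anti-inflammatory macrophages had 209 CPM of H2-Q7 and NK cells 788. The other labels of day 7 that name macrophages did not share this pattern in full. Macrophages/APCs (329 cells) had 5384 CPM of B2m, 3313 of H2-D1, 266 of H2-Q7 and 48.0 of H2-Q4. Macrophages/APCs 2 (64 cells), whose dendritic markers (3292 CPM) summed above their macrophage markers (1688), had 13357 of B2m, 5486 of H2-D1, 832 of H2-Q7 and 182 of H2-Q4. H2-D1 was thus above NK/T cells in all 3 labels of day 7 that name macrophages and B2m in 2 of the 3, while H2-Q7 and H2-Q4 were below NK/T cells in 2 of the 3; in Macrophages/APCs 2 the interval of H2-Q7 overlapped that of NK/T cells and H2-Q4 was higher.

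Cells labelled MuSCs and progenitors had the lowest summed level of the 31 groups at day 2 and higher levels of all 7 genes at day 7; no cells had this label at day 0. At day 7 (396 cells) B2m was 2913 CPM, H2-D1 1278, H2-K1 615, Tapbp 86.4, H2-Q7 72.8, H2-Q4 37.8 and H2-T23 34.6. At day 2 (58 cells) B2m was 428 CPM, H2-D1 272, H2-K1 130, Tapbp 16.6, H2-Q7 1.72, H2-Q4 3.44 and H2-T23 5.74. The log2 ratios of day 7 to day 2 ran from 2.23 (H2-D1, 2.09 to 2.37) and 2.24 (H2-K1) through 2.77 (B2m) to 5.40 (H2-Q7, 3.83 to 7.69, from 204 UMIs at day 7 and 3 at day 2). All 7 were at least 2-fold higher, where 25.9% of 9883 genes were, and none was lower (8.58%). H2-Q7, with 3 UMIs at day 2, reached the minimum of 20 UMIs only through day 7 and so had to be higher. H2-Q4, with 6 UMIs at day 2, could not have come out lower. The median log2 ratio of the 7 genes was 2.59, against 0.27 over all genes. In thinned cells, 4 of the 7 were higher; H2-T23 and H2-Q4 had under 20 UMIs there, and H2-Q7, at 0 UMIs at day 2, was higher by at least 0.40 on the log2 scale (3 counts over the group in place of 0). At day 5 (40 cells) H2-K1 and B2m were higher than at day 2 (log2 1.57 and 1.08; 18.8% of 6815 genes), none was lower (22.4%), and H2-T23, H2-Q4 and H2-Q7 had under 20 UMIs. In thinned cells neither was counted as higher at day 5: B2m was 0.26 and H2-K1 had 18 UMIs over both days. Averaged over cells, B2m was 0.82.

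These cells differed in depth and in macrophage markers. The median cell had 5881 UMIs at day 7 and 34387 at day 2. Macrophage markers summed to 5204 CPM at day 7 and 1576 at day 2. Scaled by them, immune RNA would carry between 25.4% and 77.5% of the 7 levels at day 7, and between 23.5% and 79.7% at day 2. In the 128 day 7 cells with fewer than 2 immune-marker UMIs, B2m was 1307 CPM (1218 to 1401), H2-D1 622, H2-K1 287 and H2-Q7 29.4. Those values lay below the label's day 7 levels and above its day 2 levels. H2-T23 in those cells was 4.90 CPM, from 3 UMIs, and did not lie above its day 2 level. Subtracting the immune RNA share left log2 ratios of 2.39 for B2m and 1.47 for H2-K1.

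The cells of the label varied widely at day 7. Summed over the 7 genes, the median cell had 2.18 UMIs per 1000 UMIs, the middle 50% of cells lay between 1.20 and 4.77, and the 90th percentile was 9.90. At day 2, where the median cell had 34387 UMIs against 5881 at day 7, the median was 0.834 and the 90th percentile 1.21. In Endothelial cells at day 7 the median was 13.5, the 10th percentile 8.65 and the 90th 20.3, a narrower band relative to the median than in MuSC-labelled cells of that day. In Mature skeletal muscle 19.6% of day 7 cells and 40.3% of day 5 cells had no UMI of the 7 genes. These cells were not thinned, and the median cell had 5728 UMIs at day 7 and 1608 at day 5, so depth enters both shares. At day 7 the median cell of this label had 0.257 per 1000 UMIs but its 90th percentile was 8.43.

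**Figure D4:**
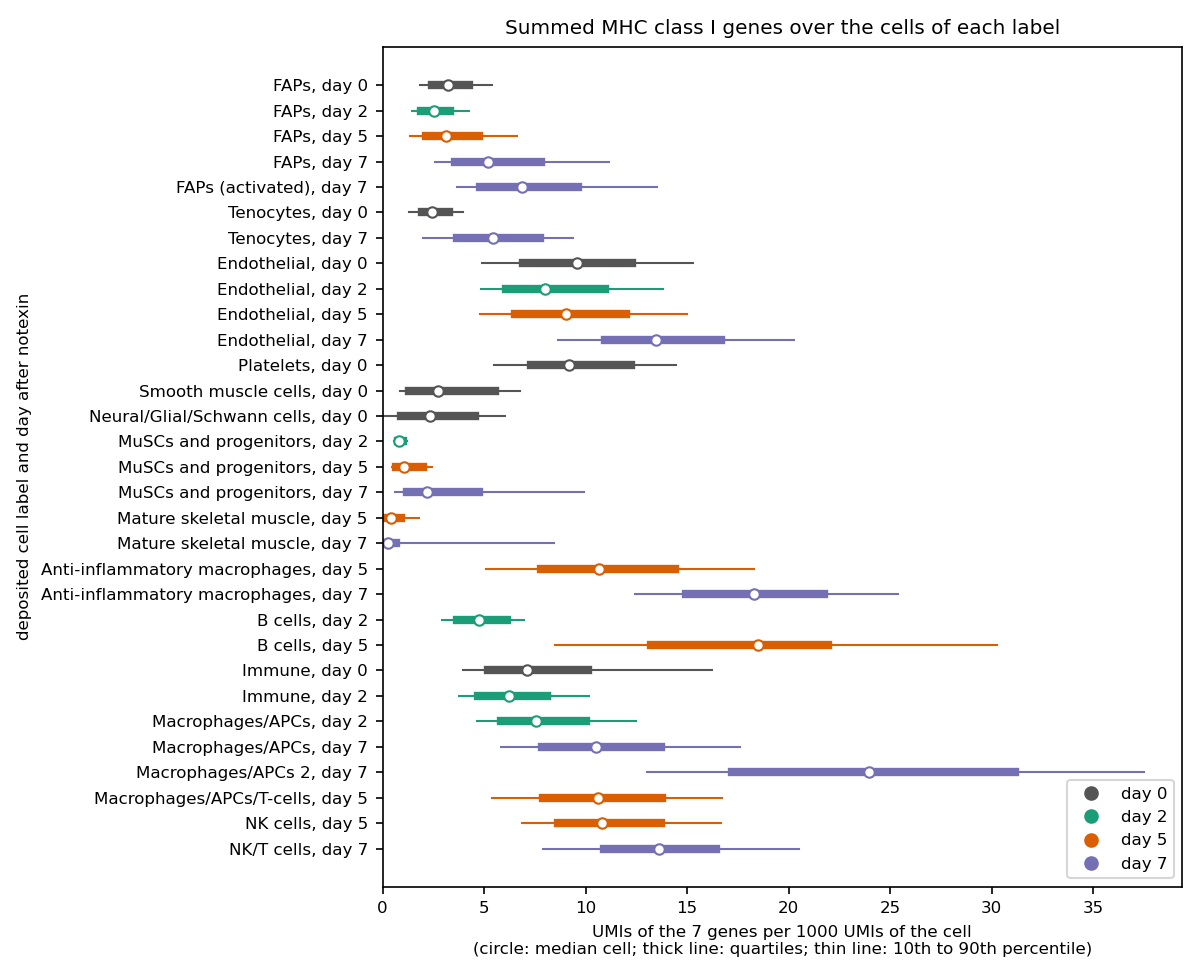
UMIs of the 7 genes per 1000 UMIs of a cell, for each label and day: circle, median cell; thick line, quartiles; thin line, 10th to 90th percentile. MuSC-labelled cells at day 7 reach from 0.609 to 9.90 around a median of 2.18, while mature muscle cells stay near 0 apart from an upper tail at day 7.

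Mature skeletal muscle cells had 246 CPM of H2-K1 at day 7 and 242 at day 5, 526 and 177 of H2-D1, and 1043 and 432 of B2m on the same days. At day 7 the macrophage markers in this label summed to 3131 CPM. Scaled by them, immune RNA would carry from 48.6% to 159% of the 7 levels, with 103% for B2m. That share was at or above the whole measured level for H2-D1, B2m and H2-Q7. At day 5 the same shares ran from 7.30% to 22.1%.

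Tenocytes, the fibroblasts of tendon, had 4012 CPM of B2m at day 7 (88 cells) and 1290 at day 0 (70 cells), 3.11-fold higher (log2 1.64). B2m was the 1 member at least 2-fold higher, where 12.9% of 5733 genes were, and none was lower (7.8%). H2-K1 was 549 CPM at day 7 and 296 at day 0 (log2 0.89, 0.60 to 1.20), and H2-D1 1319 and 911. Macrophage markers in this label summed to 1392 CPM at day 7 and 298 at day 0. In tenocytes with fewer than 2 immune-marker UMIs (21 cells at day 7 and 60 at day 0), H2-K1 was 291 and 258 CPM, with a log2 ratio of 0.17, and the ratio of B2m was 1.57. In thinned cells the ratio of H2-K1 was 0.33. B2m therefore differed more than its heavy chains: heavy-chain UMIs per B2m UMI were 0.488 at day 7 and 1.00 at day 0.

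The balance of the 2 classical heavy chains differed at day 5. H2-K1 UMIs per H2-D1 UMI lay between 0.676 and 1.65 in the 8 groups of day 5, with a median of 1.35, and between 0.270 and 0.770 in the 23 groups of days 0, 2 and 7, with a median of 0.434. The ratio was above 1 in 6 of the 8 day 5 groups and in none of the other 23; in 4 of the 8 the whole interval lay above 1. In endothelial cells it was 0.480, 0.349, 1.24 (1.05 to 1.46) and 0.598 at days 0, 2, 5 and 7. In FAPs it was 0.359, 0.483, 0.769 (0.724 to 0.816) and 0.421, the last from the cells labelled FAPs. In MuSCs and progenitors it was 0.479, 1.44 and 0.481 at days 2, 5 and 7, and in Anti-inflammatory macrophages 0.388 at day 7 and 0.676 at day 5. Every label found on day 5 and another day had its highest ratio at day 5. Day 5 is 1 library and the shallowest, and whether the shift belongs to the day or to the library was not tested.

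**Figure D5:**
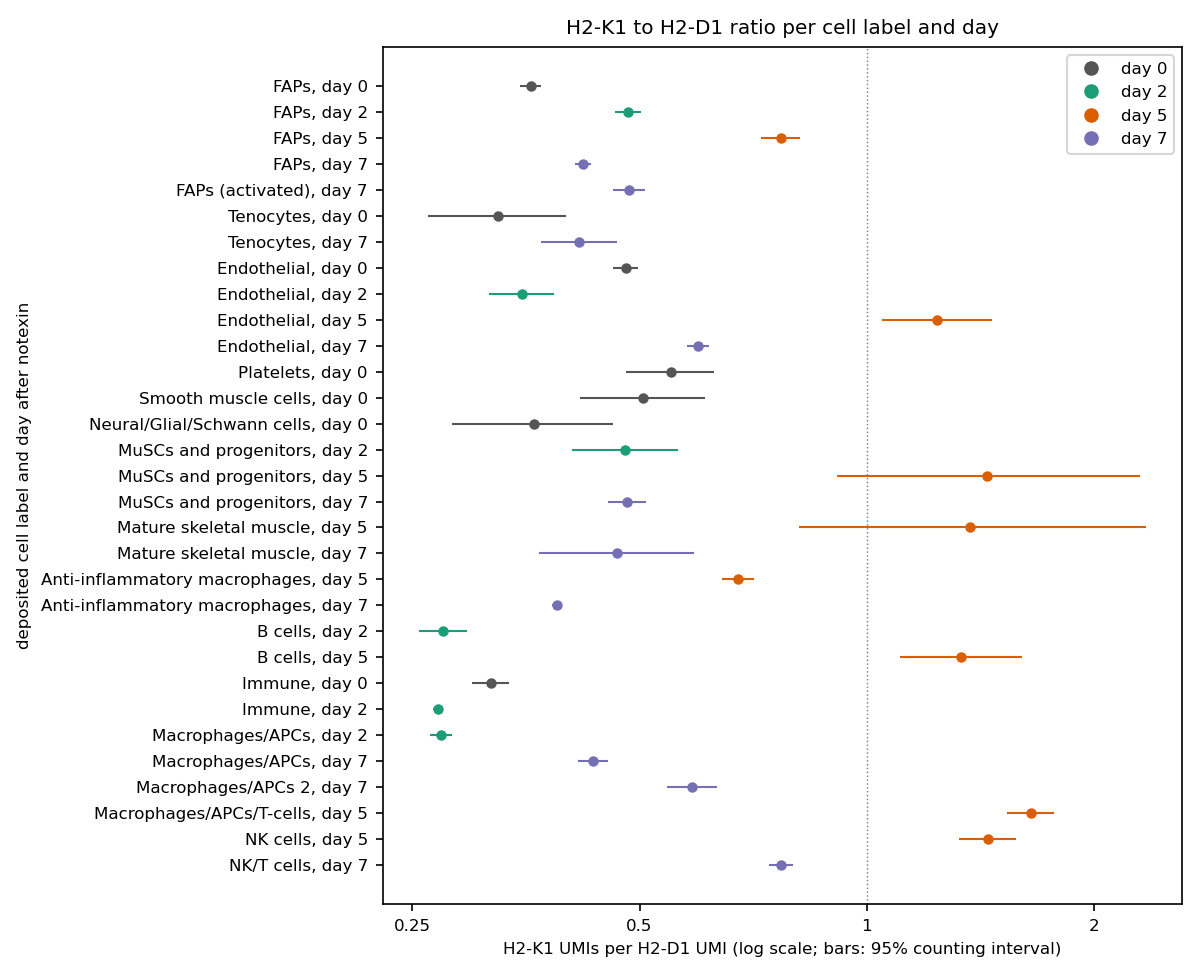
H2-K1 UMIs per H2-D1 UMI on a log axis, for each label and day, with 95% counting intervals. The 8 day 5 groups lie between 0.676 and 1.65, and the groups of days 0, 2 and 7 between 0.270 and 0.770, so the 2 sets overlap only at their edge.

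Over the 9 comparisons of FAP, endothelial and immune cells with day 0, which share their day 0 cells within a class, H2-Q7 was at least 2-fold higher in 6 and lower in 1, and H2-Q4 lower in 5 and higher in none. H2-K1 was higher in 3, B2m in 1, and H2-T23 higher in 1 and lower in 1. H2-D1 and Tapbp stayed within 2-fold in all 9 under the reported setting. Over these comparisons 6.58% to 13.5% of all genes were higher and 10% to 22.7% lower. In thinned cells, H2-Q4 in FAPs at day 2 and endothelial cells at day 7 came within 2-fold. Both H2-T23 calls and H2-K1 in immune cells at day 7 did so as well. H2-Q7 did so in endothelial cells at day 5 without immune-marker cells, and in macrophage-gated immune cells at day 2. Other values went past 2-fold. In thinned cells these were Tapbp in endothelial cells (log2 −1.30) and H2-T23 in immune cells (−1.19), both at day 2. With the median of gene ratios set to 0, H2-D1 (1.00) and B2m (1.03) passed 2-fold in FAPs at day 7. In macrophage-gated immune cells B2m at day 5 (1.20) and H2-Q7 at day 7 (1.97) did.

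Other genes of the pathway were read from 4 lists. Among 14 genes for peptide supply and loading, Tap1, a subunit of the peptide transporter, was 36.0 and 45.5 CPM in FAPs at days 5 and 7, against 17.6 at day 0 (log2 1.04 and 1.37). It was the only gene of the list higher in FAPs at those days, where 10.2% and 9.99% of all genes were. None was higher at day 2 (10.9%). Tapbpl, a tapasin relative, was lower in FAPs at day 5 (log2 −1.12), where 10.3% of all genes were. It was also lower in endothelial cells at days 2 and 7 (−2.34 and −1.04), where 19.7% and 10% of all genes were. In immune cells Tap1 was higher at days 5 and 7 (log2 1.17 and 1.16), with Tapbpl at day 5 (1.06). Psmb9, an immunoproteasome subunit, was higher there at day 7 (1.19). In endothelial cells at day 2, 6 of the 14 were at least 2-fold lower, as were 19.7% of all genes, and none was higher; the list's median log2 ratio was −0.90, against −0.30 over all genes, and Tap1 was 34.3 CPM at day 2 and 78.0 at day 0. In MuSC-labelled cells 7 of the 14 were higher at day 7 than at day 2 and 1 lower, where 25.9% of all genes were higher and 8.58% lower. Tap1 (log2 4.02), Psmb9 (3.56) and Psmb8 (3.52) led, with 182, 266 and 536 UMIs at day 7 and 7, 14 and 29 at day 2.

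Among 20 regulators, Nlrc5, the transactivator of class I genes, was higher in FAPs at days 5 and 7 than at day 0 (log2 2.49 and 2.01), from 11 UMIs at day 5, 39 at day 7 and 11 at day 0. With so few UMIs at day 0, Nlrc5 could reach the minimum at day 5, with its smaller UMI total, only by being higher. The day 5 call was therefore fixed by the minimum. Irf1, an interferon-induced activator, was lower at day 2 in FAPs, at 43.1 CPM against 205 at day 0 (log2 −2.25), in endothelial cells (log2 −1.75) and in immune cells (log2 −2.10). In MuSC-labelled cells at day 7, Irf8 (log2 4.96) and Irf1 (3.34) were higher than at day 2; Irf8 is a factor of macrophages, whose markers were present there. Of the 20 regulators, 3 were higher and none lower in FAPs at day 7, where 9.99% of all genes were higher and 10.6% lower. In immune cells at day 7, 3 were higher and none lower, against 8.42% and 16.2% of all genes. In endothelial cells at day 7 none was higher and 1 lower, against 7.08% and 10%. These 3 day 7 counts are not far from the shares over all genes. In MuSC-labelled cells 10 of 19 measured regulators were higher at day 7 than at day 2 and none lower (25.9% and 8.58%). Some of them had few day 2 UMIs and reached the minimum only through day 7. In immune cells at day 5, 5 of 20 were higher and 1 lower (13.5% and 13.2%). In endothelial cells at day 5, 4 of 19 were higher and 4 lower (11.4% and 15.6%).

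Among 24 other class I and class I-like genes, of which 14 are listed in the tables, H2-Q6 stood beside H2-Q7: in FAPs it was 8.80, 10.3 and 17.0 CPM at days 2, 5 and 7, against 2.69 at day 0 (log2 1.71, 1.93 and 2.66). In endothelial cells H2-Q6 was higher at days 5 and 7 (log2 1.49 and 1.36), and in immune cells it was lower at day 2 (−2.87) and higher at day 5 (1.59). H2-Q10 was higher in FAPs at days 2 and 7 (log2 1.86 and 2.32). In the last 500 annotated bases of H2-Q7 transcripts, 11.8% of 50-base stretches occur in another gene, most in H2-Q5; the shares were 9.60% for H2-K1, 8.92% for H2-D1, 33.7% for H2-Q4, 38.1% for H2-T23, 4.83% for Tapbp and 0% for B2m. With 90-base stretches the shares were 13.4% for H2-T23, 9.49% for H2-Q4, 4.73% for H2-Q7, 0.151% for H2-K1 and 0% for H2-D1, Tapbp and B2m. Reads from such stretches can be lost or split between genes, so levels of the Q-region genes and H2-T23 are uncertain to an extent that depends on the length of the read, which is not given in the sources used here.

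Genes listed as receptors for class I or as relatives of such receptors, which mark lymphoid and myeloid cells, also appeared in FAP-labelled cells. Klrd1, the CD94 chain, was 2.93 and 4.99 CPM at days 2 and 7, against 0.184 at day 0, from 27, 72 and 3 UMIs. Lilrb4a, a myeloid inhibitory receptor, was 19.7 CPM at day 2 and 0.796 at day 0. All 4 receptors measured at day 2 and all 8 at day 7 were at least 2-fold higher in FAPs (10.9% and 9.99% of all genes), beside the macrophage markers given above; a receptor with few day 0 UMIs reached the minimum only through the later day and so had to differ. In immune cells Klra8, a Ly49 receptor of natural killer cells, was 0.519 CPM at day 2 and 156 at day 5, against 18.0 at day 0. Of the receptors measured, 13 of 17 were lower at day 2, where 22.7% of all genes were, and 14 of 18 were higher at day 5, where 13.5% of all genes were.

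Across the 29 groups of at least 50 cells, genes among the 5 most like H2-K1 by Pearson correlation of log2(CPM + 10), of 10539 genes, were B2m (0.921), H2-Q7 (0.917), H2-Q6 (0.904) and Tap1 (0.869). Among the 5 most like the mean of the 7 members were Ier5 (0.887), Cnppd1 (0.881), Tap2 (0.881) and Idnk (0.877). Among the members the closest pair was H2-D1 and B2m (0.926) and the least alike H2-Q7 and Tapbp (0.467). Groups share libraries and differ in depth, so these values describe the tables and carry no test. In the 19 groups of at least 100 cells, the value with H2-K1 was 0.730 for Tap1 and 0.925 for H2-Q7, and that of Ier5 with the member mean was 0.624.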

How the data were processed

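Droplet libraries of sorted live muscle cells were deposited as tables of raw counts per gene and cell, tables of normalised values and tables of cell metadata, 1 of each per day; both day 0 runs share 1 table. Reads had been processed with Cell Ranger 2, Seurat 2.3.4 and R 3.6.2 on mm10, per the submitters' processing notes. The deposited counts were UMIs of annotated genes, each listed in at least 3 cells. The authors' normalised values are the natural log of 1 plus counts scaled to 10000 per cell; recomputing them from the counts matched to within 5.33e-15. The deposited mitochondrial fraction was at most 20.0% of a cell's UMIs, and the deposited cell labels were taken as given. Doublets were not called here, and whether the authors removed them is not given in the sources used here. Of the barcodes, 57 without metadata were left out of groups, and 8 metadata columns (2 in each of 4 tables) were not used; the deposited total of UMIs per cell differed from the table's by up to 66.

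Counts were summed per label and day, or per class of labels (FAP, endothelial, immune, MuSC, tenocyte; at least 40 cells), and divided by the summed UMIs, with Python 3.11.15, NumPy 2.4.6, SciPy 1.17.1 and pandas 2.3.3. Total UMIs of labelled cells were 22330278, 57723171, 5986701 and 40427212 at days 0, 2, 5 and 7. With 1 library per day no test across samples was possible, so values carry counting intervals only, and UMIs were taken as independent molecules. A count of 0 was replaced by 3 counts in a ratio, never past a ratio of 1. The members and the 4 gene lists (77 genes, 67 of them in the tables), markers and motifs were chosen with earlier results of these data known. Named genes were the 7 members, up to 4 genes per list and comparison with the largest ratios beyond 2-fold with at least 20 UMIs, and the 5 genes most like H2-K1 and like the member mean. A gene that this rule names is not reported here. The ratio and interval code was tested on simulated data. Alternatives were other scalings, the mean over cells, thinned cells, cells without immune markers or under 10% mitochondrial UMIs and macrophage-gated immune cells. Others were no minimum of UMIs and a total without the 50 most abundant genes. Subtraction of immune RNA scaled by macrophage markers and omission of the label FAPs (activated) were added after seeing the data. Promoters and positions came from RefSeq (GRCm38.p6) and GENCODE M21.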

Additional observations from a re-analysis of the deposited data

Results flagged for a closer look

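H2-Q7 went in opposite directions in FAPs and in immune-labelled cells between day 2 and day 0. The log2 ratio was 2.80 in FAPs and −2.36 in immune cells; with 1 library per day the difference was not tested. Among macrophage-gated immune cells the immune value was −0.69. In FAPs the values of the alternatives lay between 2.78 and 3.22.

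Barcodes with no metadata, which enter no comparison, also held UMIs of the 7 genes, above what a count of 0 allows. Their summed level was 4550 CPM in 14 barcodes at day 0, 1160 in 21 at day 2, 9889 in 13 at day 5 and 9948 in 9 at day 7, beside 4702, 5892, 7432 and 11958 in the labelled cells of days 0, 2, 5 and 7.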

How the results depend on the processing

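No paired analysis was possible because each day is 1 sample and no result comes from a test. Counts of members at least 2-fold away moved by more than 1.5 times as follows. Thinning to 1000 UMIs gave 0 members lower in FAPs at day 2, 0 lower in endothelial cells at day 7, 1 higher in immune cells at day 7, 0 higher in MuSC-labelled cells at day 5 and 4 at day 7; 7 member values fell under 20 UMIs there. Leaving out cells with immune markers gave 0 members higher in endothelial cells at day 5 and 0 lower at day 7. With the median of gene ratios set to 0, 4 members were higher in FAPs at day 7. The mean over cells gave 1 higher in immune cells at day 7 and 1 in MuSC-labelled cells at day 5. Macrophage-gated immune cells left 1 member lower at day 2. Subtracting immune RNA scaled by macrophage markers left 1 member lower in tenocytes. With no minimum of UMIs, 5 members were higher in MuSC-labelled cells at day 5 and 2 in tenocytes. Without that minimum the list genes were 4 lower in FAPs at day 2, 20 higher at day 5, and 22 higher and 1 lower at day 7; 7, 18 and 10 higher in endothelial cells at days 2, 5 and 7; 1 lower in immune cells at day 7; 19 higher in MuSC-labelled cells at day 5 and 3 lower at day 7; and 3 lower in tenocytes. With the median set to 0, 4 list genes were lower in endothelial cells at day 2. Shares over all genes were computed under the reported setting only, so the counts in this paragraph cannot be set against such a share. With no minimum, genes with very few UMIs are also counted. The cause of these moves was not tested. Thinning and leaving out cells also leave fewer UMIs. Leaving out immune-marker cells could not be fitted for FAPs and endothelial cells at day 2 or for MuSC-labelled cells. H2-Q7 in FAPs stayed between 2.57 and 3.75 (log2) and H2-Q4 in endothelial cells between −2.02 and −0.73 over the alternatives on counts. With the authors' normalised values, 73 of 84 member values kept their sign. Depth limits H2-T23, H2-Q4 and H2-Q7 most, in labels with few cells.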
